A study of Mus musculus with 10 samples.

Results

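The 10 genes described here encode the MHC class II antigen-presenting machinery and the costimulatory pair that acts with it: H2-Aa, H2-Ab1, H2-Eb1, Cd74, Ciita, H2-DMa, H2-DMb1, H2-DMb2, Cd80 and Cd86. They were chosen by name, as the rows of a deposited transcript table that map to these symbols, and the FPKM values of a gene's transcripts were summed. FPKM scales fragment numbers for the length of a transcript and for the total of the library, so levels of different genes are comparable per length. The 10 genes came from 13 transcript rows of 30073, and are 10 of 23488 gene rows. All 10 passed the filter on low values (at least 1 FPKM in at least 2 libraries), as did 14061 gene rows in all.

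The tissue was colon of C57BL/6 mice, profiled by RNA-seq with 2 libraries in each of 5 groups. In 4 groups the mice had been given azoxymethane (AOM), a colon carcinogen, at 10 mg/kg at 6 weeks of age, and then dextran sulfate sodium (DSS), which injures the colon lining, at 1.2% of the drinking water for 7 days. Of these, ASA mice ate a diet with 0.02% aspirin, CUR mice a diet with 2% curcumin, ASA+CUR mice a diet with 0.01% aspirin and 1% curcumin, and Model mice the AIN-93M diet with neither agent. Control mice had saline in place of AOM, no DSS, and the AIN-93M diet. Each agent was thus at a lower dose in the combined diet than in its single-agent diet, and effects of combining and of dose cannot be told apart. The labels call the tissue of the AOM/DSS groups tumour, whereas the protocol describes colon frozen after palpable tumours and the proximal end had been removed, so how much tumour each piece held is not known here. Nothing in the labels ties the paired libraries of a group to different animals, so the p-values speak to library-to-library spread, part of which may be technical.

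Class II molecules present peptides from endocytosed protein to CD4+ T cells. An alpha and a beta chain form the groove, the invariant chain (Cd74) blocks it until the complex reaches the endosome, and the DM heterodimer then exchanges the remaining invariant chain peptide for antigen. The genes share promoter elements called the X and Y boxes, bound by RFX and NF-Y factors, and are switched on by the coactivator CIITA, which does not bind DNA itself. Dendritic cells, macrophages and B cells use the pathway, and epithelium, gut epithelium included, can be brought to express it by interferon-gamma. Cd80 and Cd86 are surface ligands on antigen-presenting cells that give T cells a second signal through Cd28 and an inhibitory one through Ctla4.

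Promoters are shown because the class II genes share this control. Sequences were those of RefSeq, build GRCm38.p6, from 250 bases before to 50 after the annotated gene start, and windows were at hand for 6 of the 10 genes. The 4 windows below, from chromosome 17, hold the Y box core TGATTGG, and 3 of them the X box core AACNGATG as well. Capitals mark these letters. They read 5′ to 3′ on the strand of the gene.
H2-Aa (chr17:34287774-34288073, minus strand): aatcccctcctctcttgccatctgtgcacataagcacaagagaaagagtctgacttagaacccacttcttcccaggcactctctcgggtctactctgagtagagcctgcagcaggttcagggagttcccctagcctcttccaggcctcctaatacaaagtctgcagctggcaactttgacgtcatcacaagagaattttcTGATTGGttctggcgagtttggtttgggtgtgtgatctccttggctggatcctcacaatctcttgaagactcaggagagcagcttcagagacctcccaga
H2-Eb1 (chr17:34305617-34305916, plus strand): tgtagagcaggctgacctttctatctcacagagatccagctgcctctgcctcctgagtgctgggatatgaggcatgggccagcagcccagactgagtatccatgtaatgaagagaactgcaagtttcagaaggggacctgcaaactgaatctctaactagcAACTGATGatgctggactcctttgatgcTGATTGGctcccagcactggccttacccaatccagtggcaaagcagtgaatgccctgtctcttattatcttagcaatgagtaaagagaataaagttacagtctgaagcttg
H2-DMb1 (chr17:34152941-34153240, plus strand): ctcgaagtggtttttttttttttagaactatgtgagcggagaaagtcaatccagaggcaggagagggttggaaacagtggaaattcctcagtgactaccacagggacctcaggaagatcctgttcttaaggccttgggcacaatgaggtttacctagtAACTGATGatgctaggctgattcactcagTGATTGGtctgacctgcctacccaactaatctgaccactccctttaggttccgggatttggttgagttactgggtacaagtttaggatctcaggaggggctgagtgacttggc
H2-DMb2 (chr17:34144999-34145298, plus strand): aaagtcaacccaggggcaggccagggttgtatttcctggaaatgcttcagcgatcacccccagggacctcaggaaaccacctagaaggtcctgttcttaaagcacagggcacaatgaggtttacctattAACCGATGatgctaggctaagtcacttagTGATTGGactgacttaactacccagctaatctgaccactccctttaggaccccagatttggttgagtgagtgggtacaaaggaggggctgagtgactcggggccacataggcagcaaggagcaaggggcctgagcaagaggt
In the 4 windows the Y box core began 50 bases before the gene start in H2-Aa, 61 in H2-Eb1, 63 in H2-DMb1 and 92 in H2-DMb2. The X box core lay upstream of it, 28 bases from start to start in H2-Eb1 and 29 in H2-DMb1 and in H2-DMb2. Both motifs were searched on both strands, do not overlap in these windows, and were shortened to these letters after the windows had been read. Of 32544 promoter windows of this length, 7.8% held the Y box core, 2.32% the X box core and 0.181% both. The window of Cd80 and the pair of windows of H2-DMa held neither set of letters. A match describes the letters and is not evidence of binding. The H2-DMb1 and H2-DMb2 windows were 62.3% identical. The transcripts of these paralogs were 75.5% identical over their whole aligned length, gaps included. Fragments could have been divided between the transcripts with some error, so their separate values are uncertain, by an amount that was not measured.

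The groove chains and the invariant chain were abundant messages, and their highest levels were in CUR colon. H2-Aa, the alpha chain of I-A, had 357 and 221 FPKM in ASA, 539 and 378 in CUR, 233 and 105 in ASA+CUR, 174 and 363 in Model, and 174 and 120.3 in Control. H2-Ab1, its beta chain, had 269.6 and 190.4 FPKM in ASA, 504 and 307 in CUR, 182 and 91.4 in ASA+CUR, 160.3 and 305 in Model, and 161 and 100.4 in Control. For both genes the 2 CUR libraries lay above every other library, while ASA+CUR and Model each overlapped Control. H2-Eb1 encodes the beta chain of I-E, whose alpha chain C57BL/6 mice do not make. It had 158 and 130.0 FPKM in ASA, 289.7 and 189 in CUR, 115 and 52.8 in ASA+CUR, 102 and 206 in Model, and 98.4 and 70.5 in Control. Cd74 had 947 and 623 FPKM in ASA, 1470.2 and 997 in CUR, 572 and 304 in ASA+CUR, 456 and 982 in Model, and 411 and 285 in Control. H2-Eb1 in CUR overlapped Model, and Cd74 in CUR lay above all other libraries.

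**Figure D1:**
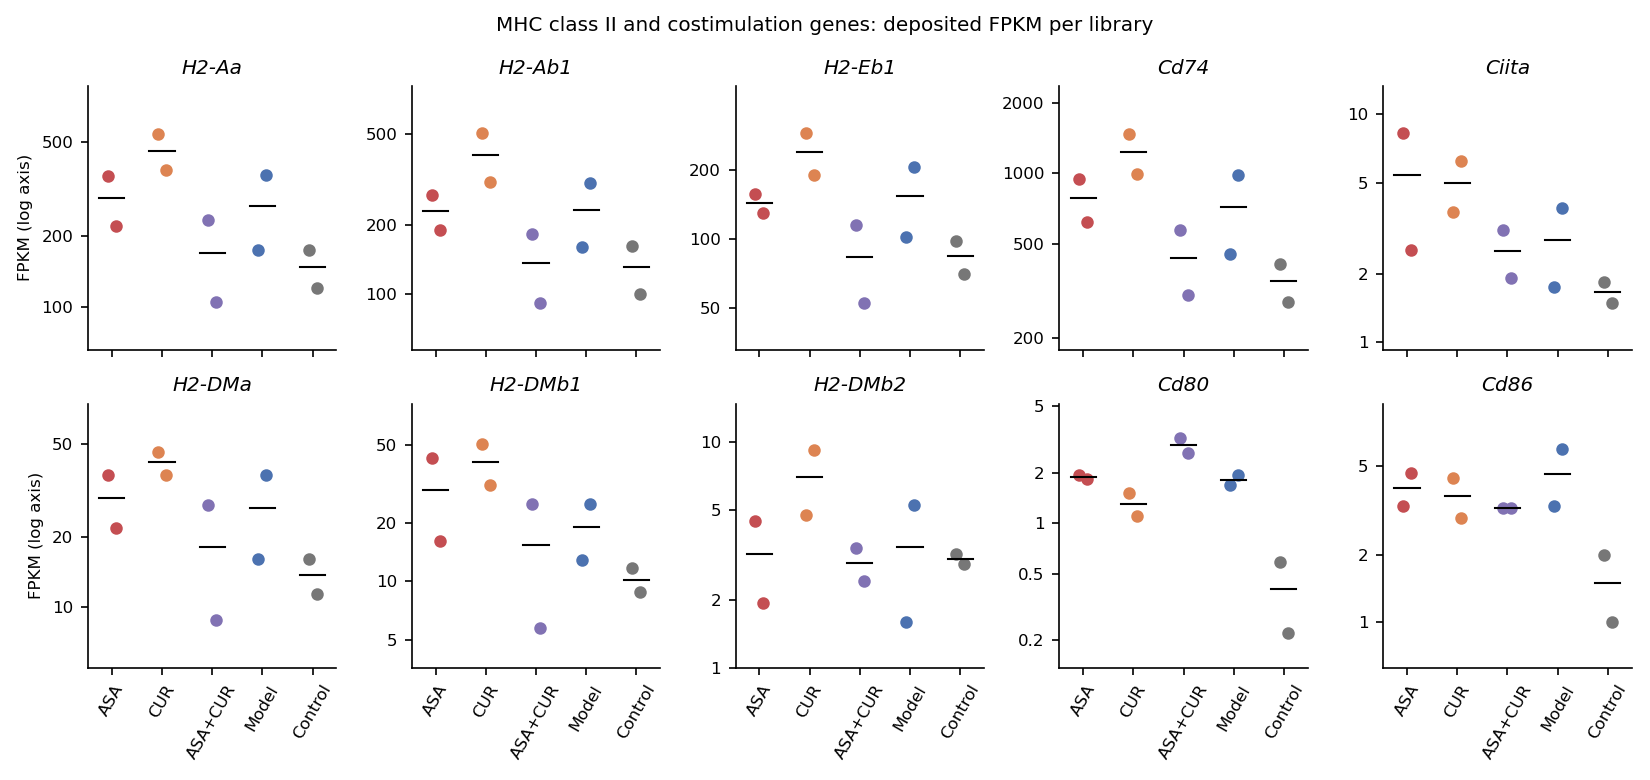
Deposited FPKM of the 10 genes in every library, on a log axis with its own range in each panel; points are libraries, 2 a group, and black lines are group means. The 2 CUR libraries stand highest for H2-Aa, H2-Ab1 and Cd74, and the 2 Control libraries lie below all others for Cd80 and Cd86.

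The endosomal and regulatory genes were far less abundant on the same per-length scale. H2-DMa, the alpha chain of DM, had 36.7 and 21.8 FPKM in ASA, 46.4 and 37.0 in CUR, 27.4 and 8.79 in ASA+CUR, 16.1 and 37.0 in Model, and 16.1 and 11.4 in Control. H2-DMb1, a beta chain of DM, had 42.8 and 16.2 FPKM in ASA, 50.6 and 31.0 in CUR, 24.8 and 5.80 in ASA+CUR, 12.9 and 25 in Model, and 11.7 and 8.80 in Control. These repeated the picture of the groove chains: high in CUR and in 1 library each of ASA and Model, and lowest in ASA+CUR replicate 1. H2-DMb2, the other DM beta chain, had 4.47 and 1.95 FPKM in ASA, 4.78 and 9.24 in CUR, 3.40 and 2.43 in ASA+CUR, 1.6 and 5.29 in Model, and 3.20 and 2.87 in Control. Its Control libraries lay inside the range of the AOM/DSS libraries, and its highest value was in CUR replicate 1, not in CUR replicate 0 as for both other DM chains. Ciita, the coactivator, had 8.30 and 2.55 FPKM in ASA, 3.72 and 6.25 in CUR, 3.12 and 1.92 in ASA+CUR, 1.75 and 3.88 in Model, and 1.83 and 1.49 in Control. CUR had the highest group mean in 7 of these 8 genes, and ASA in Ciita, where 1 library set that mean. The share of all tested genes with their highest mean in CUR is not given here. Over the 10 libraries H2-Ab1, H2-Eb1, Cd74, H2-DMa and H2-DMb1 had Pearson correlations of 0.97 to 0.99 with H2-Aa. The count therefore does not rest on 7 separate observations.

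Cd80 and Cd86 were rare messages, and both were lowest in Control. Cd80 had 1.95 and 1.84 FPKM in ASA, 1.51 and 1.10 in CUR, 3.21 and 2.63 in ASA+CUR, 1.70 and 1.93 in Model, and 0.586 and 0.220 in Control. ASA+CUR stood above all other libraries and CUR below the other AOM/DSS libraries. Among all tested genes, ASA+CUR libraries lay wholly above those of Model in 24.8% and above those of CUR in 24.3%. CUR libraries lay wholly below those of Model in 12.1%. For the class II genes, by contrast, CUR had the highest and ASA+CUR the lowest of the 4 AOM/DSS means in 7 of 8. These genes vary together, and no share of all tested genes is given for that order. Cd86 had 3.31 and 4.66 FPKM in ASA, 4.44 and 2.93 in CUR, 3.24 and 3.24 in ASA+CUR, 3.31 and 5.97 in Model, and 1.99 and 0.994 in Control. For Cd86, ASA, CUR and Model overlapped one another, ASA+CUR lay within CUR and narrowly below ASA and Model, and none of the 4 overlapped Control. Both genes had no overlap between the 8 AOM/DSS libraries and Control, and so did 20.1% of tested genes in the same direction.

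Ordered by group mean, neighbouring groups were mostly not separated by their libraries. Mean H2-Aa was 459 ± 114 FPKM in CUR, 289 ± 96.7 in ASA, 268 ± 134 in Model, 169 ± 90.7 in ASA+CUR and 147 ± 38.0 in Control (SD, n = 2 each), and only CUR was apart from the group next to it. Mean Cd74 followed the same order, with 1234 ± 335 FPKM in CUR and 785 ± 229 in ASA as the only neighbours whose libraries did not overlap (SD, n = 2 each). Mean Cd80 was 2.92 ± 0.410 FPKM in ASA+CUR, 1.90 ± 0.0729 in ASA, 1.81 ± 0.166 in Model, 1.31 ± 0.294 in CUR and 0.403 ± 0.259 in Control (SD, n = 2 each). Only ASA and Model overlapped in that order. Mean Cd86 was 4.64 ± 1.88 FPKM in Model, 3.99 ± 0.955 in ASA, 3.69 ± 1.06 in CUR, 3.24 ± 0.00417 in ASA+CUR and 1.49 ± 0.707 in Control (SD, n = 2 each), with a gap only above Control.

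Model was set against Control to ask how AOM/DSS colon without either agent differs from untreated colon. Cd80 and Cd86 rose and no class II gene passed the test. On the log2(FPKM + 1) scale, which understates changes of low genes, Cd80 was higher by 1.02 ± 0.21 (limma SE) with an adjusted p of 0.0165, and Cd86 by 1.17 ± 0.31 with an adjusted p of 0.0416 (limma, Benjamini-Hochberg over all tested genes, threshold 0.05). These were 2 of 10 genes, where 6.84% of all tested genes were called higher and 9.34% lower. The groove chains and Cd74 differed by 0.79 to 0.97, with limma adjusted p from 0.195 to 0.306, and Model replicate 0 lay near Control replicate 0 while Model replicate 1 was far above it. The median difference of the 10 genes was 0.79, against 0.02 over all tested genes, and without Model replicate 1 it was 0.30. The Cd80 call was lost without Model replicate 1 (adjusted p 0.0699) and without Control replicate 1 (adjusted p 0.125), by limma. The Cd86 call was lost in 7 of 10 fits that each left out 1 library, with limma adjusted p between 0.0351 and 0.250, and under 3 of 9 other settings, a replicate block among them (adjusted p 0.0606).

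CUR against Control gave the class II calls. Cd74 rose by 1.82 ± 0.46 (log2, limma SE, adjusted p 0.0344) and H2-Ab1 by 1.62 ± 0.45 (adjusted p 0.0498, limma), while H2-Aa at 1.63 ± 0.48 and H2-Eb1 at 1.48 ± 0.44 had adjusted p of 0.0576 and 0.0607. Cd80 differed by 0.72 ± 0.21 and missed the threshold with an adjusted p of 0.0520 (limma). The 2 called genes stand beside 6.67% of all tested genes called higher in this comparison. In all 10 genes both CUR libraries lay above both Control libraries, as in 29.5% of tested genes, and the median difference was 1.51, against 0.01 over all tested genes. Cd74 was no longer called without CUR replicate 0 (adjusted p 0.129), Control replicate 0 (0.101) or Control replicate 1 (0.208), or without a filter on low values (0.0537), by limma. H2-Ab1, next to the threshold, was lost in 5 of the 10 fits with a library left out, with limma adjusted p up to 0.268, and under 5 of 9 other settings, with adjusted p up to 0.0712.

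In ASA against Control, Cd80 alone was called, by 1.06 ± 0.21 (log2, limma SE, adjusted p 0.00979), beside 9.78% of tested genes called higher. Cd86 differed by 1.02 ± 0.31 with an adjusted p of 0.0521, and Cd74 by 1.16 ± 0.46 with 0.107 (limma). In 9 of the 10 genes, H2-DMb2 being the exception, the ASA libraries lay above those of Control, as in 36.5% of tested genes. The Cd80 call was lost without Control replicate 1 (limma adjusted p 0.0811).

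In ASA+CUR against Control, the single call was again Cd80, by 1.49 ± 0.21 (log2, limma SE, adjusted p 0.00197), beside 13.1% of tested genes called higher. It held in each of the 10 fits with a library left out, with limma adjusted p between 0.00231 and 0.0211. The 8 class II genes differed from Control by between -0.09 (H2-Eb1) and 0.38 (Ciita), none with an adjusted p under 0.568 (limma), and H2-Eb1 was higher, by 0.14, after quantile normalization. The median over the 10 genes, 0.22, was -0.35 without ASA+CUR replicate 0, 0.71 without ASA+CUR replicate 1, 0.43 without Control replicate 0 and -0.01 without Control replicate 1.

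With the 4 AOM/DSS groups averaged, Cd80 was higher than in Control by 1.07 ± 0.16 (limma SE, adjusted p 0.00233) and Cd86 by 0.97 ± 0.25 (adjusted p 0.0202), where 14.6% of tested genes were called higher. Cd74 differed by 1.06 ± 0.36 with a limma adjusted p of 0.0584. When transcripts were tested as rows of their own, the shorter Cd74 form, NM_010545, passed in this comparison (adjusted p 0.0429) and in CUR against Control (adjusted p 0.0258, limma). Without Control replicate 1, Cd86 differed by 0.68 with a limma adjusted p of 0.220.

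**Figure D2:**
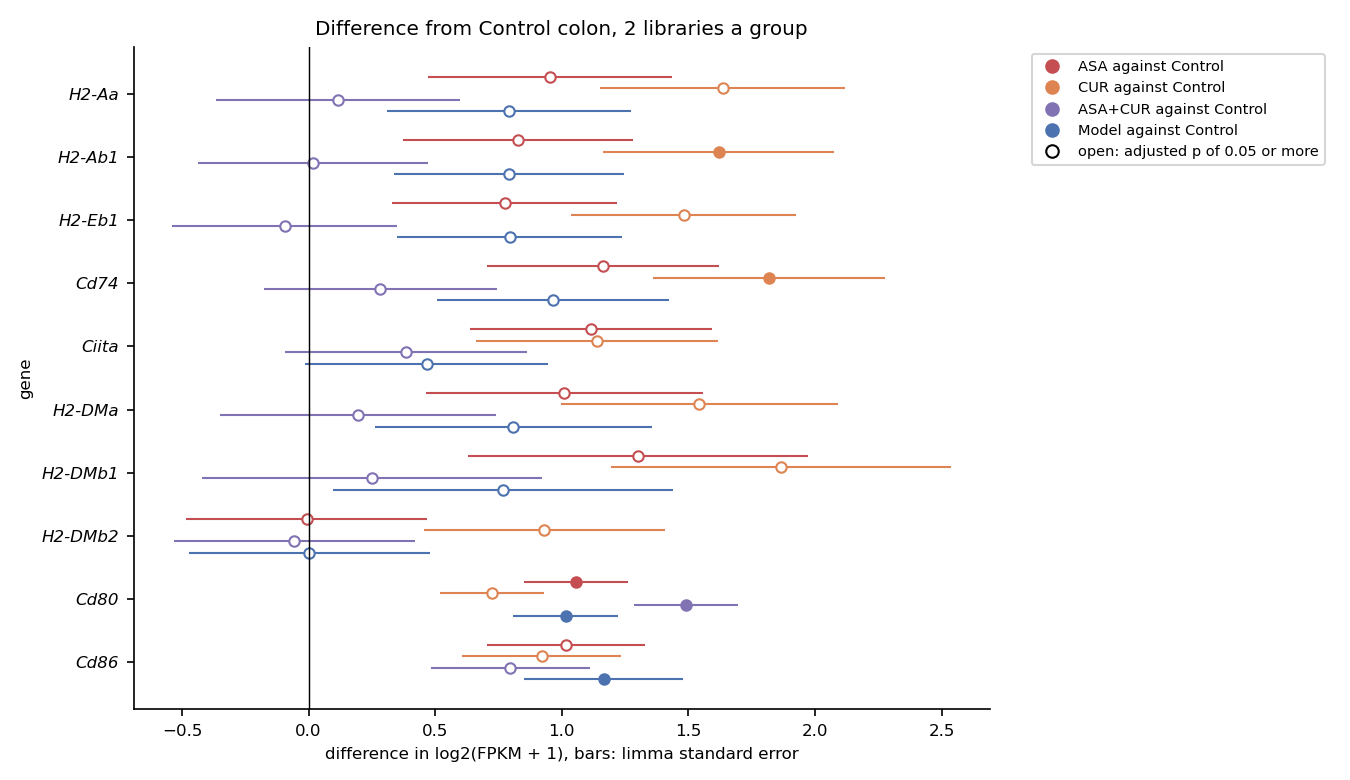
Difference of each AOM/DSS group from Control for the 10 genes, in log2(FPKM + 1), with limma's standard error as bars; filled points had an adjusted p under 0.05. Cd80 is filled in ASA, ASA+CUR and Model, Cd86 in Model, and Cd74 and H2-Ab1 in CUR, while the ASA+CUR points of the class II genes lie within 0.4 of 0.

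Among the 4 AOM/DSS groups none of the 10 genes was called in any of the 6 comparisons or in the moderated F test over the 4 groups (limma adjusted p). Calls were rare in all genes: 0.0142% in ASA against Model and in ASA+CUR against Model, 0.00711% in CUR against Model and in ASA against CUR, 0 of 14061 in ASA+CUR against ASA and against CUR, and 0.0142% in the F test. At an unadjusted limma p under 0.05, ASA+CUR against CUR had 7 of the 10 genes, where 13.8% of all tested genes reached it, and the 5 other comparisons had 0, where 2.38% to 10.1% did. In that comparison H2-Ab1 differed by -1.6 ± 0.45, H2-Eb1 by -1.57 ± 0.44, Cd74 by -1.54 ± 0.46 and H2-Aa by -1.52 ± 0.48 (log2, limma SE), with adjusted p from 0.303 to 0.323. Cd80 had the opposite sign, 0.77 ± 0.21 (adjusted p 0.300, limma). The median of the 10 genes was -1.43 in ASA+CUR against CUR and 0.78 in CUR against Model, against 0 and -0.01 over all tested genes. Both medians moved with single libraries: to -0.73 without ASA+CUR replicate 1, and to 0.28 without Model replicate 0. In the F test H2-Ab1, H2-Eb1 and Cd80 had unadjusted p of 0.0484, 0.0463 and 0.0355, and adjusted p of 0.731 (limma), where 6.73% of tested genes had an unadjusted p under 0.05. The comparisons with Control share its 2 libraries, and those among the AOM/DSS groups share libraries too.

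Within a library H2-Aa, H2-Ab1, H2-Eb1, Cd74 and H2-DMa kept nearly fixed proportions, whatever their level, and the other class II genes did so less. The FPKM ratio of Cd74 to H2-Aa ran from 2.36 to 2.89, a span of 1.22-fold, and that of H2-Ab1 to H2-Aa from 0.754 to 0.936, a span of 1.24-fold. H2-Eb1 spanned 1.34-fold and H2-DMa 1.40-fold against H2-Aa. Over the same 10 libraries H2-Aa itself spanned 5.13-fold, between 105 FPKM in ASA+CUR replicate 1 and 539 in CUR replicate 0. The proportions loosened in H2-DMb1 (2.2-fold), Ciita (3.36-fold) and Cd86 (3.98-fold), and were loosest in Cd80 (13.6-fold). The ratio of H2-DMb2 to H2-DMb1 was 0.105 and 0.120 in ASA, 0.0945 and 0.298 in CUR, 0.137 and 0.419 in ASA+CUR, 0.124 and 0.211 in Model, and 0.275 and 0.327 in Control. The Control pair was thus above 6 of the 8 AOM/DSS libraries.

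**Figure D3:**
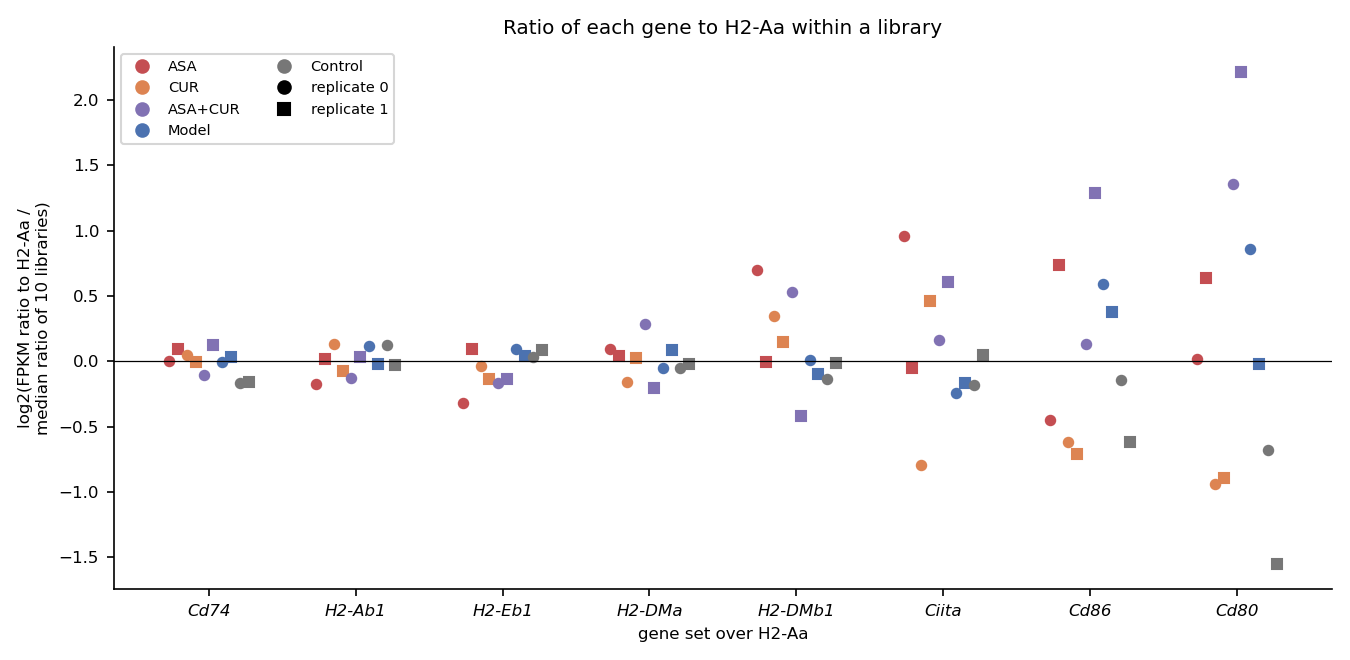
Ratio of each gene's FPKM to that of H2-Aa in the same library, as log2 of the ratio over its median across the 10 libraries; circles are replicate 0 and squares replicate 1 of the group shown by colour. Points of Cd74, H2-Ab1, H2-Eb1 and H2-DMa lie close together, and those of Cd80 spread over 13.6-fold, with ASA+CUR highest.

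Among the rest of the table, the genes most like the mean of H2-Aa, H2-Ab1, H2-Eb1 and Cd74 included genes of class I presentation. Over the 10 libraries the highest Pearson correlations of log2(FPKM + 1) were with H2-Q9, a class I-like gene whose value may hold fragments of near-identical copies (0.98), the transcript NM_001177351, which had no gene name (0.97), Cd7, a lymphocyte surface protein (0.96), Psmb8, an immunoproteasome subunit (0.96), and Gbp8, an interferon-induced GTPase (0.95). Over the 8 AOM/DSS libraries the first 5 were Slamf8, H2-Q9, Gbp8, NM_001177351 and Psmb9, all between 0.97 and 0.98. Psmb8 had 87.4 and 41.0 FPKM in ASA, 140.4 and 85.4 in CUR, 44.3 and 16.9 in ASA+CUR, 29.6 and 52.3 in Model, and 25.5 and 23.1 in Control. Its highest library, CUR replicate 0, and its lowest, ASA+CUR replicate 1, were those of H2-Aa. Psmb8 was picked for its likeness to a mean that includes H2-Aa, so shared extremes follow from the choice.

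Cd86 and Cd80 each had other companions. The genes most like Cd86 over 10 libraries were Laptm5, a lysosomal membrane protein of blood cells and one of the leukocyte markers used here (0.98), Fcer1g, the common gamma chain of Fc receptors (0.98), Cmtm3 (0.98), NM_001109990, which had no gene name (0.97), and Bcl2a1b, a survival gene of leukocytes (0.97). The FPKM ratio of Cd86 to Laptm5 ran from 0.0670 to 0.103, a span of 1.53-fold. Laptm5 was picked for its likeness to Cd86 in these libraries, so a narrow span follows from the choice. Over the 8 AOM/DSS libraries the first 5 for Cd86 were Rcn1, Itgb5, Cnn2, Il2rg and 1810010D01Rik, with 0.98 to 0.99. For Cd80 they were Sik1 (0.96), Brd7 (0.96), Mmp14, a membrane-bound matrix protease (0.95), Tmem132a and Sh3gl1 (0.94 each) over 10 libraries, and Moxd1 (0.95), Frmd6, Arc, Krt17, a keratin, and Znhit6 over 8. Mmp14 had 140.8 and 127 FPKM in ASA, 102 and 104 in CUR, 150.1 and 163 in ASA+CUR, 111 and 118 in Model, and 45.9 and 44.9 in Control, the same order of groups as Cd80 had. Mmp14 was picked for its likeness to Cd80 in these libraries, so a shared order follows from the choice. Correlations were ranked over 14061 genes and few libraries, which share their tissue piece, and they are given as a description.

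**Figure D4:**
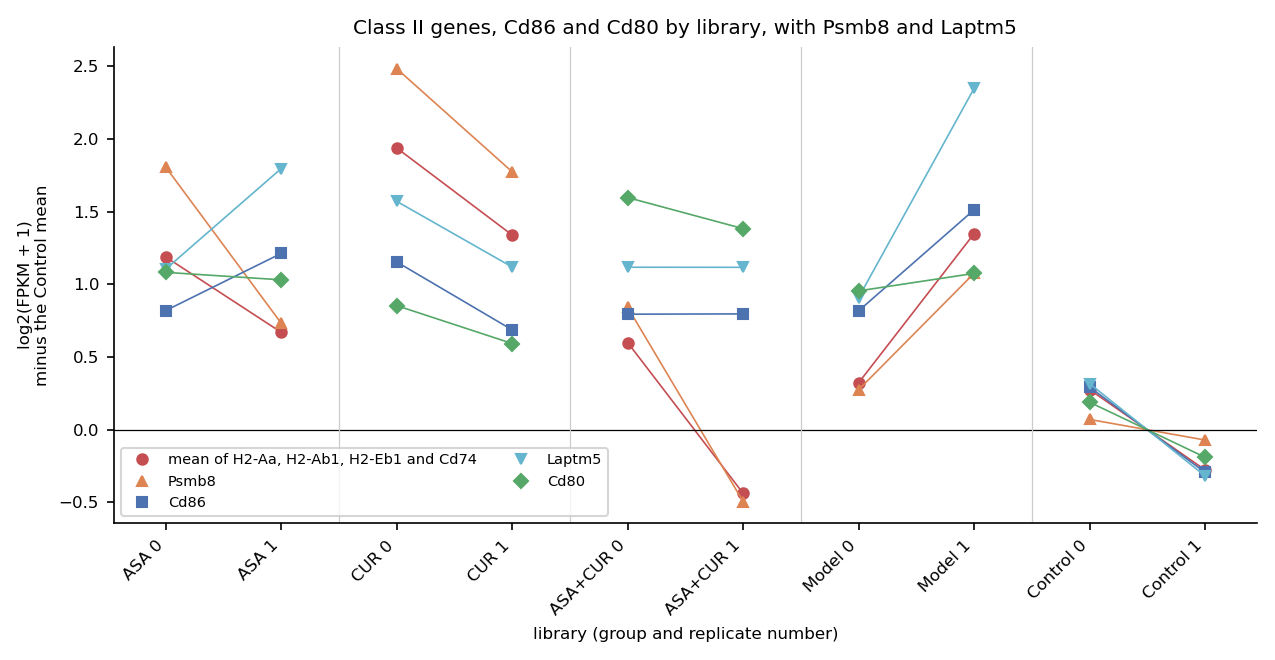
Level by library, as log2(FPKM + 1) minus the Control mean, for the mean of H2-Aa, H2-Ab1, H2-Eb1 and Cd74, for Cd86 and Cd80, and for Psmb8 and Laptm5, which are among the genes most like the first and second; lines join the 2 libraries of a group. The class II mean and Psmb8 peak in CUR replicate 0, Cd86 and Laptm5 in Model replicate 1, and Cd80 in ASA+CUR.

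Ciita has alternative promoters, each with a first exon of its own. In mice the first is used mainly by dendritic cells and macrophages, the third by B cells, and the fourth, the most downstream, is the one induced by interferon-gamma. The table held 3 Ciita transcripts on chromosome 16, whose annotated starts lie in this order along the gene: NM_001243760 upstream, NM_007575 8220 bases further on, and NM_001243761 another 1502 bases on. Their coding regions have 1155, 1078 and 1075 codons, and their annotated exons 4237, 6007 and 3953 bases. The middle form is thus the longest, by sequence outside the coding region. The matching of transcripts to promoters rests on this order alone, and transcripts of 1 gene were separated by the authors' model at FPKM values of a few units or less.

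The most downstream form, NM_001243761, varied most. It had 6.20 and 1.05 FPKM in ASA, 2.37 and 3.17 in CUR, 1.99 and 0.158 in ASA+CUR, 0.000318 and 1.92 in Model, and 0.614 and 0.739 in Control. ASA replicate 0 was the highest by a wide margin, and it was also the highest for Ciita as a whole. NM_001243760 had 2.1 and 1.5 FPKM in ASA, 1.35 and 1.62 in CUR, 1.13 and 0.172 in ASA+CUR, 1.75 and 1.55 in Model, and 1.22 and 0.749 in Control, so 9 of 10 libraries lay between 0.749 and 2.1 FPKM. NM_007575 had 1.45 FPKM in CUR replicate 1, 1.59 in ASA+CUR replicate 1 and 0.408 in Model replicate 1, and was at or next to 0 in the other 7 libraries. A value at 0 can be a failed estimate of the model. In ASA+CUR replicate 1 NM_007575 made up 82.8% of Ciita FPKM. Whether fragments of the other forms were assigned to it there was not tested.

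The same libraries differed in B cell markers and in Ifng, the interferon-gamma gene. The summed FPKM of 8 B cell markers was 12.2 and 10.1 in ASA, 16.5 and 54.9 in CUR, 10.3 and 19.3 in ASA+CUR, 10.7 and 39.5 in Model, and 11.9 and 13.5 in Control. The 3 libraries with NM_007575 thus had the 3 highest B cell sums, but not in the same order. ASA+CUR replicate 1 had the highest NM_007575 and the lowest of these 3 sums. Ifng had 1.28 FPKM in ASA replicate 0, 0.422 in CUR replicate 1, 0.217 in CUR replicate 0, 0.191 in Model replicate 1 and 0.0629 in Model replicate 0. It was listed at 0 in the other 5 libraries and did not pass the filter for testing. The highest Ifng value and the highest NM_001243761 value came from the same library. What these share beyond the library was not tested.

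**Figure D5:**
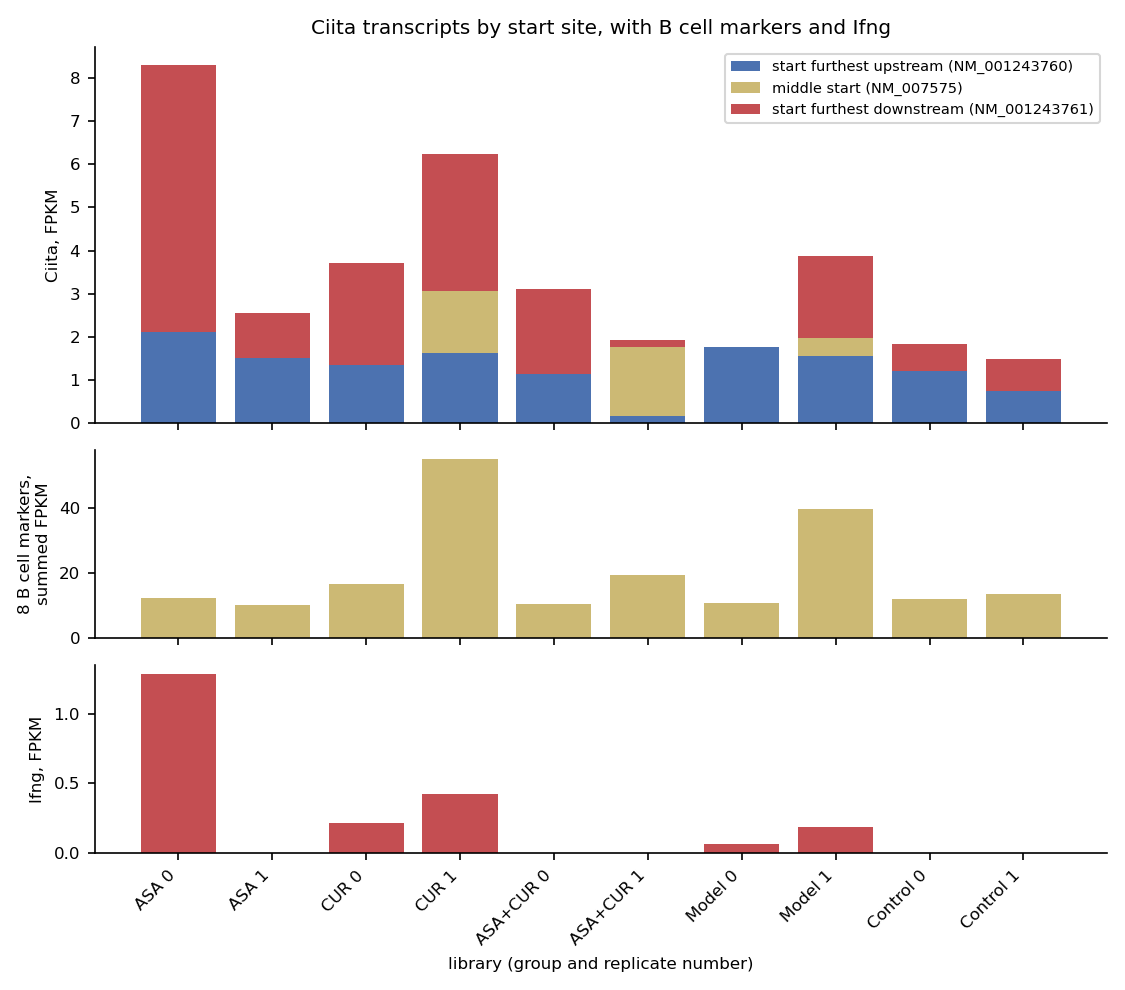
Top, FPKM of the 3 Ciita transcripts stacked by library, from the start furthest upstream to the one furthest downstream; middle, summed FPKM of 8 B cell markers; bottom, FPKM of Ifng. The downstream form is highest in ASA replicate 0, where Ifng is highest, and the middle form is seen in CUR replicate 1, ASA+CUR replicate 1 and Model replicate 1.

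Cd74 was deposited as a pair of forms that differ by an alternative exon. The longer one, NM_001042605 with 279 codons, is the p41 form and the shorter, NM_010545 with 215 codons, the p31 form. NM_001042605 made up 15.3% and 22.7% of Cd74 FPKM in ASA, 16.7% and 16.2% in CUR, 18.2% and 16.8% in ASA+CUR, 20.2% and 22.4% in Model, and 24.7% and 23.6% in Control. The Control libraries had the highest shares, above all 8 AOM/DSS libraries, of which ASA replicate 1 and Model replicate 1 came closest. As a row of its own the longer form did not pass in any comparison with Control, the smallest limma adjusted p being 0.112 in CUR.

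Of 19 listed genes of class II partners and antigen processing, 17 were tested, and with the 4 AOM/DSS groups averaged 4 rose and 3 fell against Control, beside 14.6% of all tested genes called higher and 16.9% lower, so the count that fell was near the background. Lgmn, a lysosomal protease that cuts antigen and invariant chain, was higher by 1.31 ± 0.21 (log2, limma SE, adjusted p 0.00288), with 106 and 161 FPKM in ASA, 120.4 and 96.7 in CUR, 119 and 113 in ASA+CUR, 106 and 156 in Model, and 55.0 and 41.9 in Control. Rfxank, a subunit of the RFX complex that binds the X box, was lower by -0.86 ± 0.13 (adjusted p 0.00243, limma), and Ifi30, the lysosomal thiol reductase GILT, by -0.58 ± 0.14 (adjusted p 0.0168, limma). Nfyb, a subunit of NF-Y, which binds the Y box, was higher by 0.46 ± 0.11 (adjusted p 0.0146, limma). The median of the list was 0.18, against 0.02 over all tested genes and 0.88 for the 10 members. H2-Ea, the I-E alpha chain, was not analysed here.

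Of the regulators of interferon-gamma signalling and of Ciita, 12 of 13 were tested. In Model against Control 3 of the 12 rose and none fell, beside 6.84% of all tested genes called higher. Among them were Prdm1, which represses Ciita in plasma cells, and Spi1, the myeloid factor PU.1. They rose by 1.44 ± 0.22 and 1.6 ± 0.34 (limma SE, adjusted p 0.00560 and 0.0195). Against Control, 3 rose in ASA and 4 in CUR and none fell, beside 9.78% and 6.67% of all tested genes called higher. In CUR, Prdm1 rose by 1.59 ± 0.22 (limma SE, adjusted p 0.00309) and Spi1 by 1.32 ± 0.34 (0.0373). Ifngr2, a chain of the interferon-gamma receptor, rose in CUR by 0.57 ± 0.15 (adjusted p 0.0378, limma). In ASA+CUR against Control 3 rose and 2 fell, of 12 tested, beside 13.1% of all tested genes called higher and 16.4% lower, so the count that fell was at the background. Prdm1 rose by 1.73 ± 0.22 (limma SE, adjusted p 0.00142) and Jak2, a kinase of the receptor, by 0.49 ± 0.14 (adjusted p 0.0316, limma). Irf8, a factor of myeloid and B cells, fell by 0.85 on the log2 scale (adjusted p 0.0245) and Ifngr1, a chain of the interferon-gamma receptor, by 0.79 (adjusted p 0.0264, limma).

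Of 13 class I presentation genes, all tested, 4 rose in CUR against Control: Nlrc5, the class I counterpart of Ciita, by 2.55 ± 0.47 (limma SE, adjusted p 0.0102), Tap1, a peptide transporter chain, by 2.31 ± 0.53 (0.0232), Psmb8 by 2.13 ± 0.52 (0.0303) and H2-D1, a classical class I chain, by 1.19 ± 0.32 (0.0450). None fell, and the list's median difference was 1.11 in that comparison, in which 6.67% of all tested genes were called higher. In ASA against Control only Nlrc5 of the 13 was called, by 2.01 ± 0.47 (limma SE, adjusted p 0.0192), 11 differences were positive and the median was 0.32. In Model against Control none of the 13 was called and the median was 0.11, and in ASA+CUR against Control none was called and the median was -0.21. Nlrc5 had 6.36 and 3.35 FPKM in ASA, 7.94 and 6.49 in CUR, 2.88 and 0.786 in ASA+CUR, 1.13 and 3.54 in Model, and 0.408 and 0.396 in Control.

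Other costimulatory and checkpoint genes were called higher in each AOM/DSS group. Of 21 listed, 16 were tested, and against Control 11 rose in ASA, 6 in CUR, 5 in ASA+CUR and 8 in Model, with none called lower in any of the 4. The shares of all tested genes called higher were 9.78% in ASA, 6.67% in CUR, 13.1% in ASA+CUR and 6.84% in Model. Tnfrsf9, the receptor 4-1BB of activated T cells, was higher in Model by 3.10 ± 0.35 (limma SE, adjusted p 0.00184) and its ligand Tnfsf9 by 2.15 ± 0.30 (adjusted p 0.00373). Cd276, the B7 family member B7-H3, was higher by 1.25 ± 0.20 (adjusted p 0.00648) and Pdcd1, the inhibitory receptor PD-1, by 2.14 ± 0.41 (adjusted p 0.0132, limma). Tnfrsf9 had 7.77 and 11.4 FPKM in ASA, 9.97 and 5.37 in CUR, 4.53 and 8.29 in ASA+CUR, 7.88 and 10.9 in Model, and 0.293 and 0.111 in Control. Vtcn1, the inhibitory B7 family member B7-H4, had 7.83 and 9.04 FPKM in ASA, 3.89 and 5.14 in CUR, 7.34 and 9.02 in ASA+CUR, 3.64 and 2.19 in Model, and 0.365 and 0.906 in Control. None of these lists had a member called among the AOM/DSS groups. The 4 comparisons share the Control libraries, so their counts are not independent.

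Summed marker RNA of several cell types differed between the groups, and no marker of these lists was called between any pair of AOM/DSS groups. The summed FPKM of 5 leukocyte markers was 148 and 214 in ASA, 227 and 196 in CUR, 126 and 122 in ASA+CUR, 141 and 326 in Model, and 102 and 61.0 in Control, and 3 of the 5 were called higher in Model. Of 11 macrophage markers 10 were tested and 3 rose in Model, with sums of 551 to 1424 in ASA, 679 to 944 in CUR, 596 to 686 in ASA+CUR, 732 to 1798 in Model and 256 to 342 in Control. Of 10 dendritic cell markers 7 were tested and 3 rose in Model. Their sums were 36 to 50 in ASA, 31.2 to 44.4 in CUR and 30.1 to 33.7 in ASA+CUR. In Model they were 29.5 to 72.4 and in Control 11.6 to 19.3. Of all tested genes 6.84% were called higher in Model. In CUR, 1 leukocyte, 0 macrophage and 1 dendritic cell marker were called higher, beside 6.67% of all tested genes. The counts in the same order were 2, 3 and 3 in ASA, beside 9.78%, and 0, 2 and 1 in ASA+CUR, beside 13.1%. B cell markers had 6 of 8 tested and none called in any comparison with Control, and no marker in these 4 lists was at 0 in all libraries. Smooth muscle markers, 8 of 8, fell in each AOM/DSS group, beside 8.34% (CUR) to 16.4% (ASA+CUR) of all tested genes called lower. Their sums were 323 to 1034 in the AOM/DSS libraries and 6154 to 10012 in Control. Squamous marker sums were 97.9 to 380 in ASA, 62.3 to 105 in CUR and 139 to 841 in ASA+CUR. In Model they were 14.9 to 135 and in Control 0.857 to 1.54. The summed FPKM of 8 epithelial markers was 7414 and 6988 in ASA, 13046 and 7296 in CUR, 7924 and 7658 in ASA+CUR, 8011 and 5401 in Model, and 7822 and 8953 in Control. CUR replicate 0, the library with the highest H2-Aa, H2-Ab1, H2-Eb1 and Cd74, thus stood apart in these markers, and all 8 had positive differences in CUR against Control (median 0.19) and against Model (median 0.48), with none called. Without it, Cd74 differed between CUR and Control by 1.54 (limma adjusted p 0.129) and H2-Ab1 by 1.26 (adjusted p 0.185). In whole tissue, fewer cells of a type and less RNA per cell cannot be told apart, and the part of composition in the differences of the 10 genes was not tested.

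Set over the leukocyte sum of the same library, the 3 kinds of gene differed in how far they varied. The ratio of Cd86 to that sum spanned 1.78-fold over the 10 libraries, that of H2-Aa 2.80-fold and that of Cd80 7.02-fold. Laptm5, the gene most like Cd86 over these libraries, is part of that sum. The Cd86 ratio was 0.0224 and 0.0218 in ASA, 0.0196 and 0.0149 in CUR, 0.0256 and 0.0266 in ASA+CUR, 0.0234 and 0.0183 in Model, and 0.0195 and 0.0163 in Control, so AOM/DSS and Control libraries overlapped. The H2-Aa ratio was 2.42 and 1.03 in ASA, 2.38 and 1.93 in CUR, 1.85 and 0.863 in ASA+CUR, 1.23 and 1.12 in Model, and 1.70 and 1.97 in Control. Both Model libraries lay below both Control libraries, while CUR, ASA and ASA+CUR each overlapped Control. The Cd80 ratio was 0.0132 and 0.00863 in ASA, 0.00669 and 0.00559 in CUR, 0.0254 and 0.0216 in ASA+CUR, 0.0120 and 0.00593 in Model, and 0.00573 and 0.00362 in Control. ASA+CUR lay above all other libraries in this ratio, as it did in the Cd80 level.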

How the data were processed

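RNA-seq libraries were made from total RNA of colon with a TruSeq kit, per the labels' protocols. Cuffdiff, TopHat2 (2.0.9), bcl2fastq (2.17.1.14) and Bowtie2 (2.1.0.0) were used with the builds GRCm38 and mm10, per the submitters' processing notes, which give no order. The table deposited by the authors holds FPKM per RefSeq transcript and library, which Cuffdiff estimates by dividing fragments among transcripts, with strand handling not given in the sources used here. Read totals are unknown. Steps between low values gave relative depths of 1.0 to 1.31, which are rough, since at most 36.2% of ratios lay within 0.05 (log2) of their mode, and no count was recovered. FPKM sums were 515959 to 720895.

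Symbols came from RefSeq GRCm38.p6 for 29443 transcripts and from GENCODE for 179 more, while 451 kept their identifiers and 524 carried a copy suffix. FPKM was summed per gene. Genes that reached 1 FPKM in 2 or more libraries were tested on log2(FPKM + 1) with limma 3.58.1 (R 4.3.3), with a variance trend and all 10 libraries in 1 fit (5 residual and 2.96 prior degrees of freedom), two-sided, with Benjamini-Hochberg adjustment over 14061 genes. The steps were tested on simulated data. Groups came from sample titles. The genes and lists were chosen with earlier results of these data known. All 10 genes are named. Of other lists, up to 4 called genes per comparison by smallest p are named, with their counts, and for likeness the 5 genes with the highest correlation. Nlrc5 levels, Ifng, the Ciita and Cd74 transcripts and all ratios were chosen after values were seen, and 1 listed gene is not reported here. Alternatives were pseudocount, filters, scaling, trend, a replicate block, the groups fitted, copy suffixes and leaving out each library. Figures were drawn with Python 3.11.15.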

Additional observations from a re-analysis of the deposited data

How the results depend on the processing

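Under the alternatives other than leaving out a library, the counts of called members that moved by more than 1.5 times were as follows. Model against Control had 1 in place of 2 without a filter on low values, and with only its own 2 groups fitted. ASA against Control had 2 in place of 1 with a pseudocount of 0.1, with quantile normalization, without the variance trend and with only its 2 groups fitted. CUR against Control had 1 in place of 2 without a filter, with a filter on a mean of 1 FPKM and with median-ratio scaling, and 4 with only its 2 groups fitted. ASA+CUR against Control had 2 in place of 1 with only its 2 groups fitted. The cause was not tested. No member was called among the AOM/DSS groups under any alternative run.

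The correlations of replicate differences between groups ran from -0.21 to 0.33. The highest were between ASA and ASA+CUR (0.33) and between ASA and Model (0.30). They cannot decide whether a replicate number marks a shared animal or batch, and the labels do not say. With a replicate block, Model against Control had 1 called member in place of 2, and the count of no other comparison moved by more than 1.5 times.

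Leaving out each library gave counts of 0 to 2 in Model, 0 to 2 in ASA, 0 to 4 in CUR, 1 to 1 in ASA+CUR and 1 to 3 in the AOM/DSS mean, each against Control, and 0 in every other comparison. A group left with 1 library was assumed to vary like the others. Some uncalled differences changed sign. H2-DMb2 in Model against Control, 0.00 in the fit of all libraries, was -0.050 with a pseudocount of 0.1 and -0.10 with quantile normalization, and ran from -0.63 to 0.64 with a library left out. It ran from -0.45 to 0.44 in ASA and from -0.24 to 0.12 in ASA+CUR against Control. H2-Eb1 in ASA+CUR against Control was 0.14 with quantile normalization. With a library left out, ASA+CUR against Control ran from -0.46 to 0.69 for H2-Aa, -0.47 to 0.51 for H2-Ab1, -0.65 to 0.46 for H2-Eb1, -0.17 to 0.74 for Cd74, -0.57 to 0.96 for H2-DMa and -0.71 to 1.21 for H2-DMb1. Cd86 ran from -0.59 to 0.10 in CUR against Model and from -0.36 to 0.11 in ASA+CUR against CUR.

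Depth is unknown, so no counting error is given for Cd80, Ciita, H2-DMb2 or Ifng, whose values of a few FPKM or less are the least precise.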

Other observations

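Values of H2-DMb2 and of B cell genes are set side by side here, a choice made after they were seen. H2-Oa and H2-Ob encode the DO heterodimer, which inhibits DM and is found mainly in B cells. H2-Oa had 1.90 and 1.05 FPKM in ASA, 3.08 and 4.93 in CUR, 1.11 and 2.23 in ASA+CUR, 0.892 and 3.31 in Model, and 2.70 and 1.54 in Control. H2-Ob had 1.16 and 0.863 FPKM in ASA, 2.30 and 4.81 in CUR, 0.894 and 2.14 in ASA+CUR, 0.906 and 2.49 in Model, and 1.79 and 1.53 in Control. CUR replicate 1 was the highest library for H2-Oa, H2-Ob, H2-DMb2, Cd79b and Ms4a1, while Cd79a was highest in Model replicate 1 (21.4 FPKM, against 19.3 in CUR replicate 1). The genes most like H2-DMb2 over the 10 libraries, by correlation of log2(FPKM + 1), were Dbp (0.90), Ccl19 (0.89), Arsg (0.88), Ift172 (0.88) and Cd79b, a B cell receptor component (0.87). Over the 8 AOM/DSS libraries they were Gpr18, Gstp2, Syne2, Olfr78 and Nr1d1, none of which is a B cell marker listed here.

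The genes most like Ciita over the 10 libraries were Gm4951, Kmt2d, Gbp4, Gm12185 and Tgtp1 (0.92 to 0.95), of which Gbp4 and Tgtp1 are interferon-induced GTPases. Tgtp1 had 12.4 and 2.20 FPKM in ASA, 3.14 and 11.3 in CUR, 2.84 and 0.253 in ASA+CUR, 1.01 and 1.22 in Model, and 0.247 and 0.637 in Control. ASA replicate 0 and CUR replicate 1 were the highest for Tgtp1, Gbp4 and Ciita. Tgtp1 and Gbp4 were picked for their likeness to Ciita in these libraries, so this follows from the choice.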
